A study of Nicotiana tabacum with 60 samples.

Results

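Chloroplast gene expression of the tobacco mutant Δ*petN*, which lacks a small subunit of the cytochrome *b6f* complex, was compared directly with that of Δ*psbJ*, which lacks a small subunit of photosystem II (PSII). The comparison covered the 76 chloroplast genes, of 78 in the deposited tables, that remain when *petN* and *psbJ* themselves are set aside. It used 12 of the 60 libraries of the series and 2 of its 10 lines, with 3 Ribo-seq and 3 RNA-seq libraries for each line. Ribo-seq sequences the short pieces of mRNA that ribosomes protect from nuclease (ribosome footprints), so that the footprint count of a reading frame measures its translation output. RNA-seq of total RNA measured transcript accumulation, and footprints relative to RNA are called translation efficiency. Both lines are *Nicotiana tabacum* of the cultivar Petit Havana in which the spectinomycin resistance cassette *aadA* was inserted into the chloroplast genome and the targeted reading frame was destroyed. In Δ*petN* the cassette replaces *petN* and is read through toward *psbM*, the neighbour on the opposite strand. In Δ*psbJ* it replaces *psbJ*, the last gene of the unit *psbE*-*psbF*-*psbL*-*psbJ*. Both were grown heterotrophically in sterile culture on medium with 3% sucrose, in low light, and harvested as seedlings at the same leaf stage. The *aadA* control line pRB8c, grown in the same way, served both lines in the study and is used here only to place each of them. Δ*psbJ* keeps a remnant of PSII function. The number of independent transformants behind the 3 samples of a line is not stated, so p-values measure the spread between these samples.

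PSII, cytochrome *b6f* and photosystem I (PSI) work in series in the thylakoid membrane. PSII takes electrons from water and reduces plastoquinone, cytochrome *b6f* passes them to plastocyanin, and PSI lifts them to ferredoxin. The large, pigment- or haem-binding subunits of all these complexes are encoded in the chloroplast genome, most of them in units that are transcribed together and cut into smaller transcripts afterwards. Translation of several of these mRNAs is known to respond to the assembly state of the complex, and that of *psbA*, whose product D1 is replaced far more often than any other PSII subunit, is known to respond to light. The direct comparison asks how the loss of a cytochrome *b6f* subunit differs in its consequences from the loss of a PSII subunit, with the marker cassette and the medium the same.

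The targeted genes matched the labels in every library. Footprint counts of *petN* were 19, 13 and 20 in Δ*petN*, against 3129, 871 and 1405 in Δ*psbJ*, and its RNA counts were 157, 109 and 145 in Δ*petN*, against 2216, 1469 and 1983 in Δ*psbJ*. For *psbJ* the footprint counts were 5175, 4973 and 2781 in Δ*petN*, against 64, 44 and 70 in Δ*psbJ*, and the RNA counts were 13922, 12813 and 13009 in Δ*petN*, against 99, 109 and 102 in Δ*psbJ*. Reading frames drew 1067510 to 1854615 footprints per Δ*petN* library and 1344211 to 4471605 per Δ*psbJ* library, with 10927884 to 13756031 RNA reads per Δ*petN* library and 10899858 to 12643582 per Δ*psbJ* library. The chloroplast took 15.5% to 16.9% of the mapped Ribo-seq reads in Δ*petN* and 20.7% to 27.1% in Δ*psbJ* (exact permutation test, two-sided, p = 0.1, which is the lower limit for 3 against 3 samples). Of the chloroplast reads, 63.2% to 79.7% lay in reading frames in Δ*petN* Ribo-seq libraries and 80.1% to 89.7% in those of Δ*psbJ* (p = 0.1 by the same exact test). All values below are relative to the other chloroplast reading frames of the same library, so a change of all of them together would not be seen, and the part of these library differences in the results was not tested. The tables hold chloroplast genes only, which left no cell-type markers to check the leaf tissue with, and in bulk tissue fewer cells with a transcript and less of it per cell cannot be told apart.

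Of the 76 genes, 75 were tested, and *matK*, the chloroplast intron maturase, was left out with no footprint and at most 3 RNA reads in any library. Levels are given as CPM, the footprints or RNA reads of a gene per 1000000 reading-frame reads of the library after TMM scaling (trimmed mean of M values, which corrects library size for a few dominant genes), in the order of the replicate numbers. Differences are log2 fold changes of Δ*petN* over Δ*psbJ* with their standard errors from edgeR's quasi-likelihood test, and a gene was called at a Benjamini-Hochberg adjusted p of at most 0.01 over the 77 genes tested. In translation output 7 of the 75 genes were higher and 10 lower in Δ*petN*, or 22.7% called, beside 24.7% of all 77 genes tested with *petN* and *psbJ* among them (10.4% higher and 14.3% lower). With library sizes alone in place of TMM the split was 34 higher and 4 lower, the median gene then standing at a log2 fold change of 0.64 in place of 0.01. Of the 10 lower genes only *psbA*, *psbM*, *psbE* and *ndhI* passed with that scaling. The DESeq2 size factors gave 11 and 10, and centring each library gave 10 and 9. The higher count was 11 without Δ*petN* replicate 2, 4 without Δ*psbJ* replicate 1 and 3 without Δ*psbJ* replicate 3, and the lower count was 5 without Δ*petN* replicate 2. Only *psbA* and *psbM* passed a 4-fold threshold as well, both lower in Δ*petN*, beside 5.19% of all genes tested past 4-fold in either direction and 3.9% lower. The levels of the lines did not overlap for 49.4% of all genes tested.

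*psbA* (D1, the PSII reaction-centre protein that is renewed after light damage) showed the largest difference in translation output among the 75 genes. Its footprints stood at 28862, 30301 and 32355 CPM in Δ*petN*, against 287825, 385212 and 325078 CPM in Δ*psbJ*. All Δ*petN* libraries lay far below all Δ*psbJ* libraries. The difference was -3.45 ± 0.19 (SE, n = 3 samples each, edgeR adjusted p = 3.8e-08), or 10.9-fold lower in Δ*petN*. The *psbA* footprints were counted between positions 546 and 1567 of the chloroplast genome on the minus strand, the window listed in the deposited table. *psbA* RNA did not move with them. It was 169493, 242666 and 218505 CPM in Δ*petN*, against 226991, 183264 and 195224 CPM in Δ*psbJ*, and the lines overlapped, with a log2 difference of 0.06 ± 0.15 (edgeR adjusted p = 0.76). Translation efficiency of *psbA* was lower in Δ*petN* by 11.4-fold, with a log2 difference of -3.51 ± 0.24 (edgeR adjusted p = 3.2e-09).

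Scaling does not enter ratios within a library, and these gave the same order. Per kilobase, *psbA* had 0.853, 1.01 and 1.02 times the footprints of *psbD*, which encodes D2, the partner of D1, in Δ*petN*, and 5.01, 4.40 and 5.53 times in Δ*psbJ*. The control pRB8c had ratios of 2.63, 4.13 and 3.88, between those of the mutants. By mean RPKM (reads per kilobase of reading frame and per 1000000 mapped reads) *psbA* ranked 14 of 78 genes in footprints in Δ*petN* and 1 in Δ*psbJ*, whereas its RNA ranked 2 in both lines. Each line was also set against pRB8c in a fit of its own. *psbA* translation output was -2.84 ± 0.25 in Δ*petN* (edgeR adjusted p = 1.6e-05) and 0.61 ± 0.21 in Δ*psbJ* (edgeR adjusted p = 0.047) over pRB8c, and *psbA* RNA was -1.19 ± 0.17 in Δ*petN* (edgeR adjusted p = 3.4e-05) and -1.10 ± 0.15 in Δ*psbJ* (edgeR adjusted p = 6.8e-12). The low RNA level was found in each mutant, and the low footprint level in Δ*petN*. Translation efficiency of *psbA* differed from the control in both mutants, in opposite directions. Over pRB8c it was -1.65 ± 0.31 in Δ*petN* (edgeR adjusted p = 0.00021) and 1.71 ± 0.28 in Δ*psbJ* (edgeR adjusted p = 0.00017). These fits share the pRB8c libraries, were made with TMM scaling alone and are given side by side only.

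**Figure D1:**
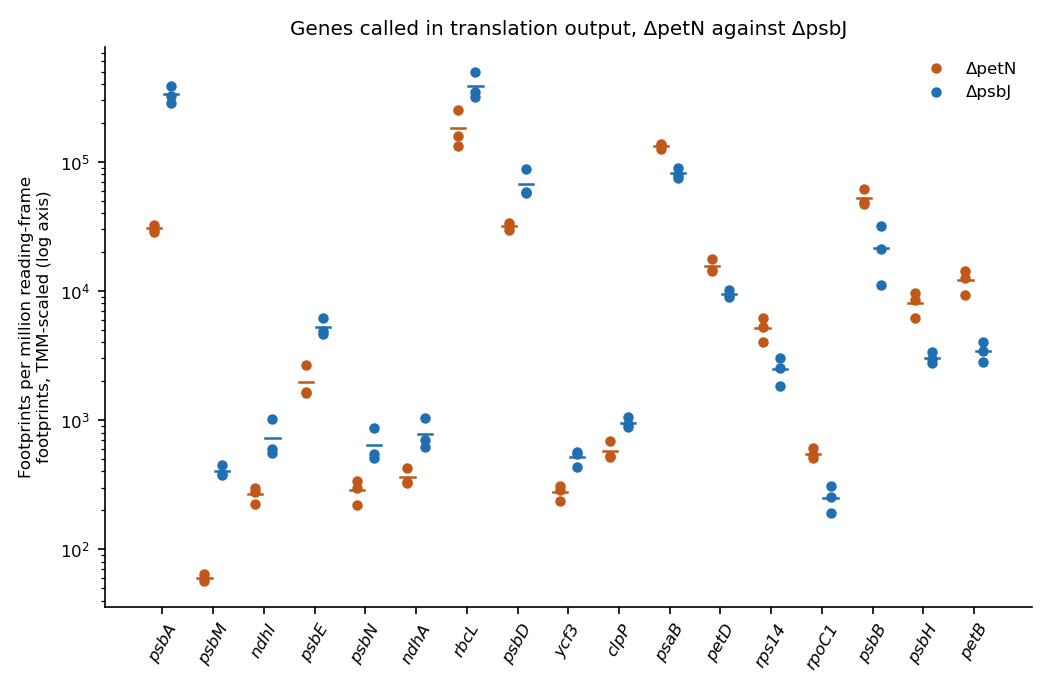
Translation output of the 17 genes called between Δ*petN* (orange, left of each pair) and Δ*psbJ* (blue, right), as TMM-scaled footprint CPM on a log axis; points are the 3 libraries of a line and bars their mean. Genes run from the most lowered in Δ*petN*, *psbA*, to the most raised, *petB*, and no pair of lines overlaps.

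The opposite direction was led by the unit *psbB*-*psbT*-*psbH*-*petB*-*petD*, which joins PSII and cytochrome *b6f* genes on a single precursor transcript. Of its 5 genes 4 were higher in Δ*petN* in translation output (80% called, beside 22.7% of the 75 genes), with a median log2 difference of 1.30 beside 0.01 for all 75 genes. In RNA 0 were called (beside 26.7%), and the median was 0.13 beside -0.11 for all genes (with DESeq2 size factors *petD* RNA passed as well). *petB* (cytochrome *b6*, a haem-carrying core subunit) had 14225, 12709 and 9297 footprint CPM in Δ*petN*, against 2828, 4030.2 and 3404 CPM in Δ*psbJ*. All Δ*petN* libraries exceeded all Δ*psbJ* libraries, and the difference was 1.82 ± 0.20 (SE, edgeR adjusted p = 3.3e-05), or 3.53-fold. *petB* RNA was 14392, 15854 and 14638 CPM in Δ*petN*, against 14412, 13563 and 13131 CPM in Δ*psbJ*, a difference of 0.13 ± 0.07 that did not pass (edgeR adjusted p = 0.18). Its translation efficiency was 3.24-fold higher in Δ*petN* (log2 difference 1.69 ± 0.22, edgeR adjusted p = 1.6e-05). That call ended in a fit with pRB8c and its mutants (edgeR adjusted p = 0.023).

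*psbH* (a small PSII phosphoprotein bound beside CP47) followed *petB*. It had 9698, 6149 and 8437 footprint CPM in Δ*petN*, against 2773, 2967 and 3349 CPM in Δ*psbJ*, without overlap and with a difference of 1.42 ± 0.19 (edgeR adjusted p = 0.00015). *psbH* RNA differed by 0.12 ± 0.08 (edgeR adjusted p = 0.27) and its translation efficiency was 2.46-fold higher in Δ*petN* (log2 difference 1.30 ± 0.21, edgeR adjusted p = 0.0002), a call that ended with limma on log2(RPKM + 1) (adjusted p = 0.016) and in a fit with pRB8c and its mutants (edgeR adjusted p = 0.14). *psbB* (CP47, an inner antenna protein of PSII) had 61432, 46944 and 49121 footprint CPM in Δ*petN*, against 31893, 11179 and 20986 CPM in Δ*psbJ*. The lines did not overlap, but the Δ*psbJ* libraries were widely spread, and the difference of 1.30 ± 0.31 (edgeR adjusted p = 0.0064) was lost without Δ*psbJ* replicate 3 (edgeR adjusted p = 0.029) and with limma on log2(RPKM + 1) (adjusted p = 0.062). *psbB* RNA differed by 0.13 ± 0.08 (edgeR adjusted p = 0.23), and its translation efficiency by 1.17 ± 0.35 (edgeR adjusted p = 0.033), short of the threshold. *petD* (subunit IV of cytochrome *b6f*) had 17716, 14554 and 14398 footprint CPM in Δ*petN*, against 9246, 10255 and 8938 CPM in Δ*psbJ*, again apart, with a difference of 0.71 ± 0.16 (edgeR adjusted p = 0.0046) that was lost without Δ*psbJ* replicate 1 or 3 (edgeR adjusted p = 0.019 and 0.031) and with limma on log2(RPKM + 1) (adjusted p = 0.072). *psbT*, a small subunit at the PSII dimer interface, did not pass in footprints, at 0.38 ± 0.18 (edgeR adjusted p = 0.13).

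Set against pRB8c, the genes of this unit fell into different patterns. *petB* translation output was 1.83 ± 0.23 over pRB8c in Δ*petN* (edgeR adjusted p = 0.00013) and 0.01 ± 0.19 in Δ*psbJ* (edgeR adjusted p = 0.95), and *psbH* was 1.36 ± 0.25 in Δ*petN* (edgeR adjusted p = 0.00095) and -0.06 ± 0.20 in Δ*psbJ* (edgeR adjusted p = 0.84). For these genes Δ*psbJ* lay near the control and Δ*petN* above it. For *psbB* Δ*psbJ* lay below the control, at -1.89 ± 0.30 (edgeR adjusted p = 0.0017). Δ*petN* stood at -0.59 ± 0.16 and just missed the threshold (edgeR adjusted p = 0.0101). The side of Δ*petN* depends on the scaling. As an unscaled share of reading-frame footprints *psbB* took 5.291% to 7.998% in Δ*petN*, overlapping the 5.386% to 6.166% of pRB8c. In Δ*psbJ* the share was 0.865% to 2.484%, below the control. *psbB* RNA was lower than in pRB8c in each mutant, at -1.13 ± 0.09 in Δ*petN* (edgeR adjusted p = 1.7e-07) and -1.10 ± 0.12 in Δ*psbJ* (edgeR adjusted p = 2.0e-17). The size of this gap depends on the scaling. As unscaled shares of reading-frame reads *psbB* RNA was 5.59%, 4.68% and 4.93% in Δ*petN* and 4.84%, 4.28% and 4.66% in Δ*psbJ*. Those of pRB8c were 6.46%, 6.17% and 6.30%, higher by less than in the scaled fits. The unit lies away from both insertions, with the counting window of *petB* at 78224 to 78825, that of *petN* at 29553 to 29602 and that of *psbJ* at 66378 to 66460.

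**Figure D2:**
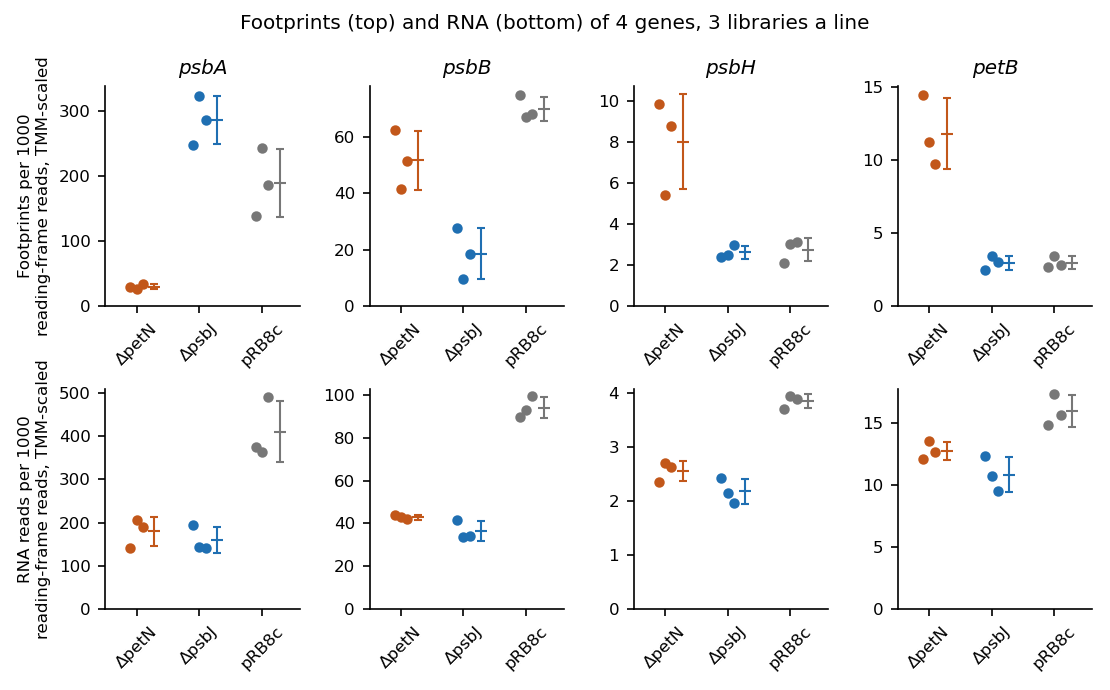
Footprints (top row) and RNA (bottom row) of *psbA*, *psbB*, *psbH* and *petB* per 1000 reading-frame reads, TMM-scaled over 9 libraries, in Δ*petN*, Δ*psbJ* and the control pRB8c; points are libraries, and the bar beside them is the mean ± SD (n = 3). The RNA of all 4 genes is similar in the mutants, while *psbA* footprints are lower and *psbB*, *psbH* and *petB* footprints higher in Δ*petN* than in Δ*psbJ*.

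The other cytochrome *b6f* genes were not called in translation output. Of the 5 *pet* genes tested 2 were higher and 0 lower in translation output (40% called, beside 22.7% of the 75 genes). *petA* (cytochrome *f*) had 1378, 2042 and 1808 footprint CPM in Δ*petN*, against 2174, 1560.0 and 1595 CPM in Δ*psbJ*, an overlapping pair with a difference of -0.03 ± 0.20 (edgeR adjusted p = 0.95). Its RNA, 2827, 2875 and 2860.0 CPM in Δ*petN* against 2154, 2106 and 2239 CPM in Δ*psbJ*, was higher by 0.40 ± 0.08 (edgeR adjusted p = 0.0025). That call was lost without Δ*petN* replicate 1 or 3 or Δ*psbJ* replicate 2 (edgeR adjusted p = 0.013, 0.016 and 0.015). The ratio of their footprints within a library did not overlap between the lines. Per kilobase *petA* had 0.0632, 0.105 and 0.127 times the footprints of *petB* in Δ*petN* and 0.501, 0.252 and 0.306 times in Δ*psbJ*. The small subunits *petL* and *petG* differed by -0.55 ± 0.29 (edgeR adjusted p = 0.16) and -0.01 ± 0.21 (edgeR adjusted p = 0.98) in footprints. *petL* RNA, at 49.6 to 56.8 CPM in Δ*petN* against 72.9 to 79.6 CPM in Δ*psbJ*, was lower, at -0.49 ± 0.09 on the log2 scale (edgeR adjusted p = 0.0017), a call that DESeq2 size factors ended (adjusted p = 0.014).

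PSI genes were higher in Δ*petN* in the unit *psaA*-*psaB*-*rps14*, and here RNA and footprints differed alike. The unit's RNA was called in 3 of 3 genes (beside 26.7% of the 75 genes), with a median of 0.69. Its translation output was called in 2 of 3 (beside 22.7%), with a median of 0.71. *psaA* (a PSI reaction-centre protein) had 89254, 110456 and 84560.1 RNA CPM in Δ*petN*, against 61224, 55807 and 53921 CPM in Δ*psbJ*, a difference of 0.73 ± 0.11 (edgeR adjusted p = 0.00058). Its footprints, 88106, 126780.0 and 87126 CPM in Δ*petN* against 62263, 66979 and 55063 CPM in Δ*psbJ*, did not overlap either. They differed by 0.71 ± 0.19 and just missed the threshold (edgeR adjusted p = 0.013), which they passed with DESeq2 size factors (adjusted p = 0.0056) and with the pRB8c libraries in the fit (adjusted p = 0.00061). *psaB* (the other PSI reaction-centre protein) rose in RNA by 0.68 ± 0.12 (edgeR adjusted p = 0.0014) and in footprints by 0.70 ± 0.16 (edgeR adjusted p = 0.0056). *psaB* footprints were 134071, 137298 and 126778 CPM in Δ*petN*, against 79245, 90006 and 75411 CPM in Δ*psbJ*, and the footprint call was lost without Δ*psbJ* replicate 1 or 3 (edgeR adjusted p = 0.019 and 0.041). *rps14* (a protein of the small ribosomal subunit) rose in RNA by 0.69 ± 0.08 (edgeR adjusted p = 0.00013) and in footprints by 1.06 ± 0.22 (edgeR adjusted p = 0.0033, and 0.013 and 0.015 without Δ*psbJ* replicate 1 or 3). With limma on log2(RPKM + 1) neither *psaB* nor *rps14* footprints passed (adjusted p = 0.065 and 0.011).

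Translation efficiency of *psaA* and *psaB* differed by -0.02 ± 0.23 and 0.02 ± 0.21 between the lines (edgeR adjusted p = 0.998 for each). Over pRB8c, *psaA* RNA was -0.08 ± 0.11 in Δ*petN* (edgeR adjusted p = 0.52) and -0.66 ± 0.12 in Δ*psbJ* (edgeR adjusted p = 1.3e-07), and *psaA* translation output was -0.08 ± 0.18 in Δ*petN* (edgeR adjusted p = 0.69) and -0.80 ± 0.15 in Δ*psbJ* (edgeR adjusted p = 0.0023). For *psaA* the TMM-scaled values of Δ*psbJ* lay below the control. Its unscaled share of reading-frame footprints did too, at 4.85%, 5.18% and 4.68% in Δ*psbJ* against 8.57%, 7.07% and 8.21% in pRB8c. The share of RNA reads did not, at 6.08%, 5.63% and 5.32% against 6.16%, 5.48% and 5.53%. In Δ*petN* the shares were 11.5%, 14.3% and 11.6% of footprints and 9.49%, 10.3% and 8.61% of RNA reads. The footprints of the other genes of the unit ran differently. *psaB* footprints were 0.47 ± 0.14 in Δ*petN* (edgeR adjusted p = 0.016) and -0.25 ± 0.14 in Δ*psbJ* (edgeR adjusted p = 0.22), and *rps14* footprints were 1.46 ± 0.27 in Δ*petN* (edgeR adjusted p = 0.0011) and 0.37 ± 0.27 in Δ*psbJ* (edgeR adjusted p = 0.32). The remaining PSI genes did not pass in either direction. *psaC*, the iron-sulphur protein of PSI, stood at -0.39 ± 0.15 in footprints (edgeR adjusted p = 0.061) and -0.19 ± 0.13 in RNA (edgeR adjusted p = 0.25).

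PSII genes outside the *psbB* unit, where they were called, were lower in Δ*petN*. Of 13 PSII genes tested, 2 were higher and 4 lower in translation output (46.2% called, beside 22.7% of the 75 genes), with a median of -0.34. In RNA 0 were higher and 7 lower (53.8%, beside 26.7%), with a median of -0.55 beside -0.11 for all 75 genes. In RNA 26.7% of these 75 genes were called (5 higher and 15 lower), beside 28.6% of all 77 tested (7.79% higher and 20.8% lower). The RNA split changed to 9 higher and 6 lower with DESeq2 size factors and to 7 and 9 with centring, and the PSII count was 4 lower with DESeq2 size factors and 6 lower with centring. The higher count in RNA was 3 without Δ*petN* replicate 1 or 3 or Δ*psbJ* replicate 2, and 8 without Δ*psbJ* replicate 3, and the lower count was 8 without Δ*petN* replicate 3. With library sizes alone the PSII median in translation output was 0.29, the other way, relative to an all-gene median of 0.64.

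The unit *psbD*-*psbC*-*psbZ* was lower in RNA in 3 of 3 genes (beside 26.7% of the 75 genes called), and in 2 of 3, without *psbZ*, with DESeq2 size factors. *psbD* (D2) had 27122, 28358 and 25709 RNA CPM in Δ*petN*, against 43610.0, 53762 and 42456 CPM in Δ*psbJ*, a difference of -0.78 ± 0.10 (edgeR adjusted p = 0.00016). *psbD* footprints were 33829, 29896 and 31812 CPM in Δ*petN*, against 57492, 87518 and 58771 CPM in Δ*psbJ*. The lines were apart in both measures, and the footprint difference of -1.09 ± 0.20 (edgeR adjusted p = 0.0014) was lost without Δ*petN* replicate 2 (edgeR adjusted p = 0.015) and with library sizes alone (-0.44, edgeR adjusted p = 0.077). *psbC* (CP43, the other inner antenna protein), whose reading frame overlaps the end of *psbD*, was lower in RNA, at -0.55 ± 0.09 (edgeR adjusted p = 0.00062) and stood at -0.46 ± 0.17 in footprints (edgeR adjusted p = 0.061). The *psbC* RNA call ended with limma on log2(RPKM + 1) (adjusted p = 0.017). Over pRB8c, *psbD* RNA was -1.21 ± 0.10 in Δ*petN* (edgeR adjusted p = 2.2e-07) and -0.28 ± 0.11 in Δ*psbJ* (edgeR adjusted p = 0.018). The side of Δ*psbJ* depends on the scaling. As an unscaled share of reading-frame reads *psbD* RNA was 4.33%, 5.42% and 4.19% in Δ*psbJ*, above the 3.38%, 3.96% and 3.36% of pRB8c. In Δ*petN* it was 2.88%, 2.65% and 2.62%, below the control.

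The genes beside the insertions also differed. In the unit of *psbJ*, *psbE* and *psbF* encode the subunits of cytochrome *b559*, and *psbL* a small subunit beside them. RNA was lower in Δ*petN* in 3 of 3 of these genes (beside 26.7% of the 75 genes called). *psbL* RNA was 549, 821 and 566 CPM in Δ*petN*, against 1943, 1520.0 and 1352 CPM in Δ*psbJ*, a difference of -1.31 ± 0.19 (edgeR adjusted p = 0.00038). *psbF* and *psbE* RNA differed by -0.77 ± 0.15 (edgeR adjusted p = 0.002) and -0.68 ± 0.14 (edgeR adjusted p = 0.0029), and both calls ended with DESeq2 size factors (adjusted p = 0.013 and 0.027). Leaving out Δ*petN* replicate 3 ended both as well (edgeR adjusted p = 0.016 each), leaving out Δ*psbJ* replicate 2 that of *psbF* (0.011), and leaving out Δ*petN* replicate 1 or Δ*psbJ* replicate 1 that of *psbE* (0.013 and 0.011). Footprints ran in the reverse order along the unit. *psbE* had 1633, 2661 and 1642 footprint CPM in Δ*petN*, against 6190.3, 4658 and 4914 CPM in Δ*psbJ*, a difference of -1.41 ± 0.22 (edgeR adjusted p = 0.00051). *psbF*, at -0.49 ± 0.18 (edgeR adjusted p = 0.059), and *psbL*, at -0.34 ± 0.18 (edgeR adjusted p = 0.16), did not pass. Within libraries *psbE* had 0.494 to 0.711 times the footprints of *psbF* per kilobase in Δ*petN* and 1.10 to 1.18 times in Δ*psbJ*. Over pRB8c, *psbE* RNA was -1.51 ± 0.12 in Δ*petN* (edgeR adjusted p = 2.0e-07) and -0.68 ± 0.11 in Δ*psbJ* (edgeR adjusted p = 2.2e-08). *psbF* RNA was -1.19 ± 0.13 in Δ*petN* (edgeR adjusted p = 3.8e-06) and -0.27 ± 0.18 in Δ*psbJ* (edgeR adjusted p = 0.16), and *psbL* RNA was -1.20 ± 0.15 in Δ*petN* (edgeR adjusted p = 1.5e-05) and 0.27 ± 0.16 in Δ*psbJ* (edgeR adjusted p = 0.11). In these TMM-scaled fits all 3 RNAs lay below the control in Δ*petN*, and in Δ*psbJ* that of *psbE* did. Several of these sides depend on the scaling. As an unscaled share of reading-frame reads *psbE* RNA was 0.704%, 0.550% and 0.575% in Δ*psbJ*, overlapping the 0.645%, 0.594% and 0.634% of pRB8c. In Δ*petN* it was 0.355%, 0.436% and 0.354%. *psbF* RNA took 0.0867%, 0.0724% and 0.0693% in Δ*psbJ*, above the 0.0636%, 0.0570% and 0.0556% of pRB8c. In Δ*petN* it took 0.0447%, 0.0487% and 0.0410%, below the control. *psbL* RNA took 0.193%, 0.153% and 0.133% in Δ*psbJ*, above the 0.0926%, 0.0861% and 0.0763% of pRB8c. Its share in Δ*petN*, 0.0584%, 0.0767% and 0.0576%, overlapped the control. The part of the insertion in the values of this unit was not tested.

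*psbM* (a small PSII subunit at the dimer interface) lies beside *petN* on the other strand. It had 63.8, 59.3 and 56.4 footprint CPM in Δ*petN*, against 451, 384 and 372 CPM in Δ*psbJ*, with a difference of -2.75 ± 0.22 (edgeR adjusted p = 1.1e-06). Its RNA, 114, 106 and 91.2 CPM in Δ*petN* against 1077, 1013 and 819 CPM in Δ*psbJ*, differed by -3.23 ± 0.16 (edgeR adjusted p = 5.6e-08). This was the one RNA difference past 4-fold among the 75 genes, beside 3.9% of all 77 tested in either direction and 2.6% lower, and translation efficiency of *psbM* differed by 0.48 ± 0.23 (edgeR adjusted p = 0.21). The use of strand in counting is not stated, so reads antisense to *psbM* could not be set apart. The same limit holds for *psbN*, a PSII assembly factor on the strand opposite the *psbB* unit, which was lower in Δ*petN* at -1.16 ± 0.25 in footprints (edgeR adjusted p = 0.0042) and -1.04 ± 0.10 in RNA (edgeR adjusted p = 2.2e-05). Its footprint call was lost without Δ*petN* replicate 2 or Δ*psbJ* replicate 2 (edgeR adjusted p = 0.037 and 0.012) and with library sizes alone (-0.49, edgeR adjusted p = 0.086).

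**Figure D3:**
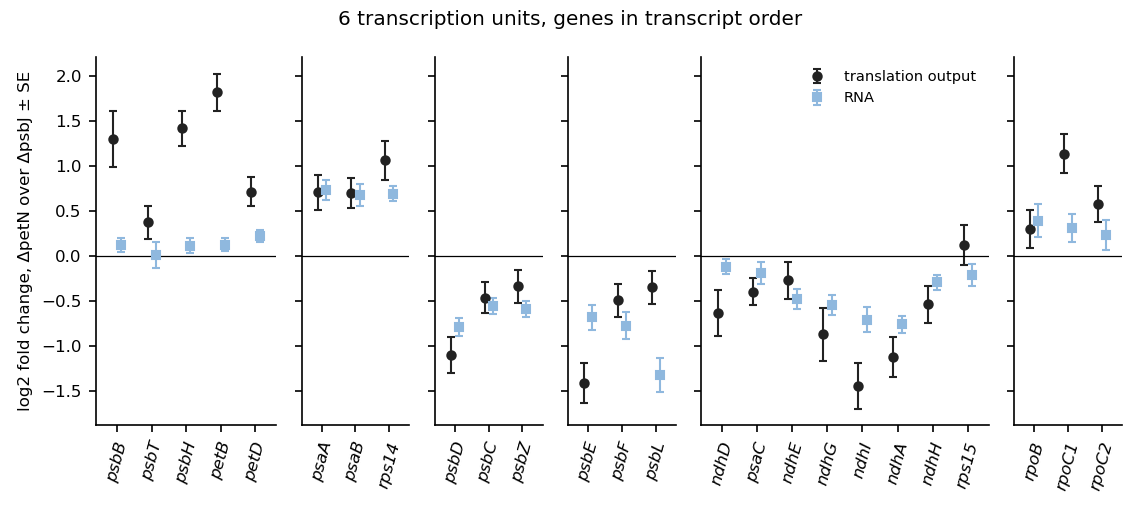
Log2 fold changes of Δ*petN* over Δ*psbJ* (± SE, 3 samples a line) for the genes of 6 transcription units in transcript order, as translation output (black circles) and RNA (blue squares). In *psbB* to *petD* footprints lie above 0 and RNA near 0, in *psaA* to *rps14* both lie above 0, and in *psbD* to *psbZ* and *psbE* to *psbL* both lie below 0.

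Outside the photosystems and cytochrome *b6f*, *rbcL*, *ndhI*, *ndhA*, *rpoC1*, *rps14*, *ycf3* and *clpP* were called in translation output. *rbcL* (the large subunit of Rubisco, the carbon-fixing enzyme) had 133705, 253423 and 157891 footprint CPM in Δ*petN*, against 493009, 320700.0 and 349877 CPM in Δ*psbJ*. The difference of -1.09 ± 0.26 (edgeR adjusted p = 0.0064) was lost without Δ*petN* replicate 1 (edgeR adjusted p = 0.017) or Δ*psbJ* replicate 1 or 3 (0.033 and 0.018) and with library sizes alone (-0.47, edgeR adjusted p = 0.046), and *rbcL* RNA stood at -0.19 ± 0.11 (edgeR adjusted p = 0.18). Of the 11 genes of the NDH complex, which returns electrons from ferredoxin to plastoquinone, 0 were higher and 2 lower in translation output (18.2% called, beside 22.7% of the 75 genes) and 0 higher and 4 lower in RNA (36.4%, beside 26.7%). *ndhI* footprints were 278, 299 and 223 CPM in Δ*petN*, against 1017, 552 and 598 CPM in Δ*psbJ* (difference -1.44 ± 0.25, edgeR adjusted p = 0.0013). *ndhA* footprints were 326, 423 and 333 CPM in Δ*petN*, against 1032, 701 and 613 CPM in Δ*psbJ* (difference -1.12 ± 0.23, edgeR adjusted p = 0.0029, and 0.012 without Δ*petN* replicate 2). With library sizes alone *ndhA* footprints stood at -0.48 (edgeR adjusted p = 0.045), and with limma on log2(RPKM + 1) neither *ndhA* nor *ndhI* footprints passed (adjusted p = 0.025 and 0.015). In RNA *ndhA* was lower, at -0.75 ± 0.09 (edgeR adjusted p = 0.00016), as was *ndhI*, at -0.71 ± 0.14 (edgeR adjusted p = 0.0022), and the *ndhI* call ended with DESeq2 size factors (adjusted p = 0.017) and without Δ*petN* replicate 2 or 3 or Δ*psbJ* replicate 2 (edgeR adjusted p = 0.012, 0.016 and 0.015).

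Of 6 ATP synthase genes 0 were called in translation output (beside 22.7% of the 75 genes), and 2 were lower in RNA (33.3%, beside 26.7%). These were *atpA* (a catalytic-head subunit), at -0.38 ± 0.07 (edgeR adjusted p = 0.0017) and *atpH* (the membrane rotor subunit), at -0.33 ± 0.08 (edgeR adjusted p = 0.0099). Neither call held with DESeq2 size factors (adjusted p = 0.026 and 0.076). That of *atpA* was lost without Δ*petN* replicate 3 (edgeR adjusted p = 0.012), and that of *atpH* without any one library other than Δ*petN* replicate 2 (edgeR adjusted p = 0.015 to 0.054). Of 12 genes for proteins of the small ribosomal subunit 1 was called in translation output and RNA, *rps14* (8.33%, beside 22.7% and 26.7% of the 75 genes). Of 9 for the large subunit 0 were. Among 4 genes of the chloroplast RNA polymerase, *rpoC1* alone was called in translation output (25%, beside 22.7% of the 75 genes). It had 507, 541 and 603 footprint CPM in Δ*petN*, against 190.4, 255 and 308 CPM in Δ*psbJ* (difference 1.14 ± 0.21, edgeR adjusted p = 0.0019) and an RNA difference of 0.32 ± 0.15 (edgeR adjusted p = 0.13). Its neighbours *rpoB* and *rpoC2* stood at 0.30 ± 0.21 (edgeR adjusted p = 0.28) and 0.58 ± 0.20 (edgeR adjusted p = 0.04) in footprints. In RNA, 0 of the 5 genes read by the nucleus-encoded polymerase (*accD*, *rpoB*, *rpoC1*, *rpoC2*, *ycf2*) were called between the lines, beside 26.7% of the 75 genes. *accD*, for fatty acid synthesis, differed by 0.16 ± 0.18 (edgeR adjusted p = 0.48) and *ycf2* by 0.38 ± 0.14 (edgeR adjusted p = 0.053). Each line set against pRB8c gave higher RNA for *rpoB*, by 1.41 ± 0.12 in Δ*petN* (edgeR adjusted p = 3.1e-07) and 1.16 ± 0.15 in Δ*psbJ* (edgeR adjusted p = 1.8e-12). *rps4* RNA was higher than in pRB8c by 1.34 ± 0.16 in Δ*petN* (edgeR adjusted p = 9.8e-06) and 1.38 ± 0.19 in Δ*psbJ* (edgeR adjusted p = 2.5e-11), and differed between the mutants by 0.11 ± 0.14 (edgeR adjusted p = 0.52). The last calls in translation output were lower values in Δ*petN* of *ycf3*, a PSI assembly factor (-0.90 ± 0.20, edgeR adjusted p = 0.0042), and *clpP*, a protease subunit (-0.73 ± 0.18, edgeR adjusted p = 0.0085). Neither held with library sizes alone (edgeR adjusted p = 0.23 and 0.61). The *clpP* call was lost without any one of the 6 libraries (edgeR adjusted p = 0.012 to 0.074) and the *ycf3* call without any one but Δ*psbJ* replicate 3 (0.012 to 0.057).

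**Figure D4:**
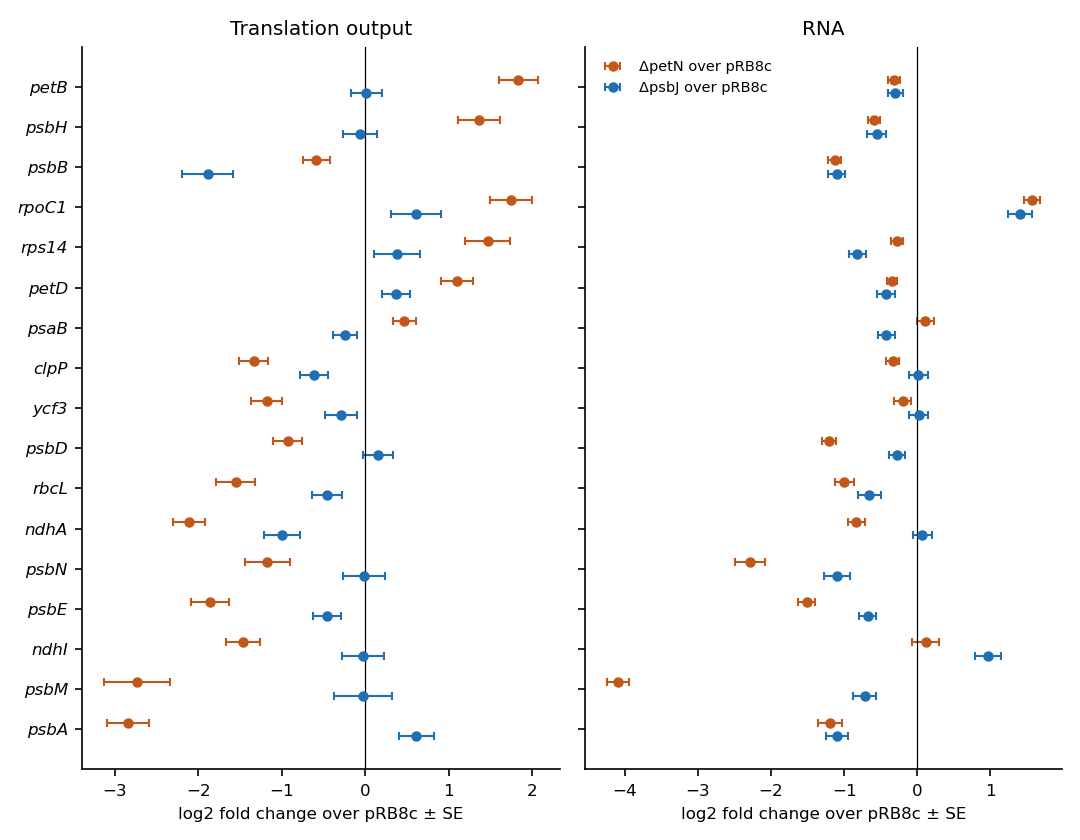
Log2 fold changes over the control pRB8c (± SE, 3 samples a line) of the 17 genes called between the lines in translation output, for Δ*petN* (orange, upper of each pair) and Δ*psbJ* (blue, lower), in translation output (left) and RNA (right). In translation output genes such as *petB*, *psbH*, *rps14*, *psbM* and *psbA* have Δ*petN* well away from 0 and Δ*psbJ* within 0.61 of it, whereas *psbB* is lowest in Δ*psbJ*. Both lines share the same control libraries.

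Translation efficiency, tested as the interaction of line and library type in a single model over the 12 libraries, was called for 4 of the 75 genes, or 5.33%, beside 6.49% of all 77 tested (3.9% higher and 2.6% lower). *petB*, *psbH* and *rpl32* were higher in Δ*petN*, and *psbA* was lower, the single one of them past 4-fold, where 2.6% of all 77 genes lay (all of these lower). *rpl32* (a protein of the large ribosomal subunit) was higher by 2.13-fold in efficiency (log2 difference 1.09 ± 0.21, edgeR adjusted p = 0.0011), with footprints of 429, 409 and 377 CPM in Δ*petN*, against 267, 204 and 253 CPM in Δ*psbJ*, and RNA of 94.2, 90.0 and 77.7 CPM in Δ*petN*, against 119.7, 109 and 105 CPM in Δ*psbJ*. With limma on log2(RPKM + 1) its efficiency did not pass (adjusted p = 0.099), nor did it in a fit with pRB8c and its mutants. With library sizes alone the split was 31 higher and 1 lower, and with DESeq2 size factors or TMM factors from which the genes near the insertions were left out it was 3 and 2. Without Δ*petN* replicate 2 it was 5 and 1.

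**Figure D5:**
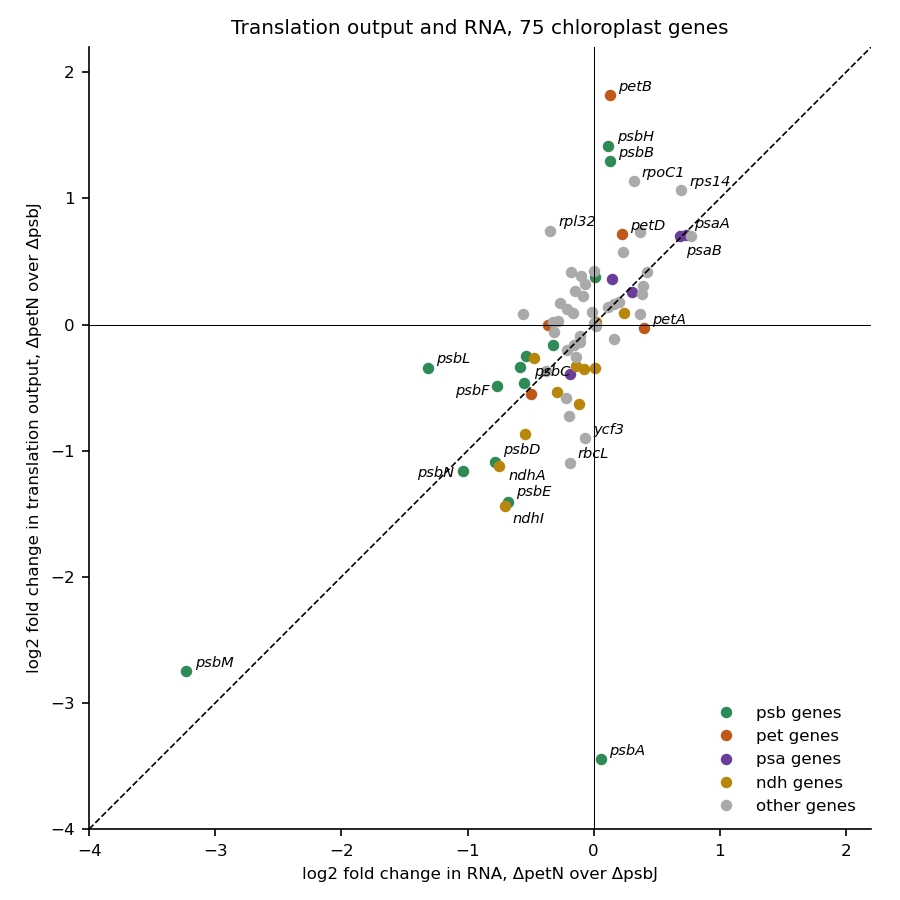
Log2 fold change of Δ*petN* over Δ*psbJ* in translation output (vertical) against that in RNA (horizontal) for 75 chloroplast genes, coloured by gene family; the dashed line marks equal change. *psbA* lies at 0.06 in RNA and -3.45 in translation output, *petB*, *psbH* and *psbB* lie above the line, and *psbM*, *psbD*, *psaA* and *psaB* lie near it.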

How the data were processed

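Ribo-seq and RNA-seq of tobacco seedlings were analysed for Δ*petN*, Δ*psbJ* and pRB8c, with 3 samples each. Before deposit the authors trimmed reads with cutadapt and mapped them stepwise with STAR 2.7.1a, first against rRNA and tRNA, then against the chloroplast, mitochondrial and nuclear genomes. Per reading frame the authors deposited footprint counts, all whole, and for RNA-seq estimated counts, of which 94 values in 6 inverted-repeat genes were not whole and were rounded. They also deposited RPKM, which follow from the counts within a relative tolerance of 0.001, apart from *rps12* in RNA-seq. The listed Ribo-seq windows leave out 10 nt at the lower and 30 nt at the higher coordinate of every reading frame checked, on both strands (22 genes on the plus and 41 on the minus strand), so on the minus strand the longer part is missing at the start. This holds alike for both lines. In Ribo-seq, genes with introns were counted in the last exon, and in RNA-seq over the whole reading frame without reads that reach more than 52 bp across an intron-exon junction. Overlapping genes (*psbD* and *psbC*, *atpB* and *atpE*) and genes of the inverted repeat have uncertain counts.

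Counts were fitted with edgeR 4.0.16 in R 4.3.3 (TMM, quasi-likelihood test, at least 10 counts in at least 3 of the 6 libraries, Benjamini-Hochberg adjustment over 77 genes), and alternatives with limma 3.58.1 and DESeq2 1.42.0. RPKM alternatives used log2(RPKM + 1), with pseudocounts of 0.1 and 10. Called genes have an adjusted p of at most 0.01, and separately a 4-fold change. The edgeR fits of the direct comparison were tested on simulated data. No replicate pair agreed within counting noise. In each of translation output and RNA the 10 largest called differences without overlap were named, in efficiency the 6 largest called, with a fixed list of core subunits, neighbours of the insertions and expression genes. Named after their values were seen were *rps14*, *ycf3*, *clpP*, *psbT* and *rpl32* in footprints and *psbH*, *atpH* and *rpl32* in RNA. Members and lists were chosen with earlier results of these data known. No sequences were printed.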

Additional observations from a re-analysis of the deposited data

Results flagged for a closer look

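Genes are given here for which one mutant lay above all pRB8c libraries and the other below all of them, with the direct difference called. In translation output this held for *psbA*, with 26776 to 33751 footprint CPM in Δ*petN* and 249067 to 324194 CPM in Δ*psbJ*, against 138827 to 243121 CPM in pRB8c (TMM over the 9 libraries). The direct log2 difference was -3.45 (edgeR adjusted p = 3.8e-08). It also held for *psaB*, with 121327 to 136093 footprint CPM in Δ*petN* and 66638 to 75749 CPM in Δ*psbJ*, against 79234 to 92698 CPM in pRB8c, and a direct difference of 0.70 (edgeR adjusted p = 0.0056). The side of Δ*psbJ* depends on the scaling here. Its unscaled share of reading-frame footprints, 6.17%, 6.97% and 6.41%, overlapped the 7.64%, 6.65% and 7.19% of pRB8c. In RNA the rule held for *petA*, with 2373 to 2472 CPM in Δ*petN* and 1623 to 1840 CPM in Δ*psbJ*, against 1895 to 1971 CPM in pRB8c, and a direct difference of 0.40 (edgeR adjusted p = 0.0025). In its own fit with pRB8c, where scaling rests on 6 libraries, *petA* RNA of Δ*psbJ* was 0.08 ± 0.14 (edgeR adjusted p = 0.61), so its side of the control depends on the scaling.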

How the results depend on the processing

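Across 19 alternatives the named genes that had been called kept their direction in all 323 values of translation output, 304 of RNA and 76 of efficiency, while those that had not been called changed sign in 32 of 323, 4 of 304 and 55 of 456 values. Passing under every one of these alternatives were *petB*, *psbA*, *psbE* and *psbM* in translation output, *ndhA*, *psaA*, *psaB*, *psbL*, *psbM*, *psbN* and *rps14* in RNA, and *psbA* in efficiency. The counts moved as follows, with the cause not tested unless the setting itself gives it. At an adjusted p of 0.05, 12 genes were higher in translation output, 8 in RNA and 5 in efficiency, where 2 were lower. A 2-fold threshold gave 5 higher and 8 lower in translation output, 3 lower in RNA and 3 higher in efficiency. Library sizes alone gave 34 higher and 4 lower in translation output, 2 of them at least 4-fold higher, and 31 higher in efficiency, 1 of them at least 4-fold. DESeq2 size factors gave 11 higher in translation output, 9 higher and 6 lower in RNA and 2 lower in efficiency, and the DESeq2 Wald test 11 higher, 12 higher in RNA and 3 lower in efficiency. TMM without the genes near the insertions gave 2 lower in efficiency, and centring 9 lower in RNA. With limma on log2(RPKM + 1), or with 0.1 or 10 added, 3 were higher and 5 lower in translation output, 8 lower in RNA and 1 higher in efficiency. A fit with pRB8c gave 11 higher in translation output, and 11 higher and 9 lower in RNA. A fit with pRB8c and its mutants gave 4 higher and 6 lower in translation output, 4 lower in RNA and 0 higher in efficiency. Leaving out each library in turn gave 3 to 11 higher and 5 to 8 lower in translation output, 0 to 1 at least 4-fold higher, 3 to 8 higher and 8 to 14 lower in RNA, and 3 to 5 higher in efficiency. The lines share replicate numbers only: deviations of same-numbered samples correlated at -0.38, -0.52 and 0.27 in Ribo-seq and -0.41, -0.39 and 0.63 in RNA-seq, not every sample was closest to its own number, and the replicate block gave 5 higher and 4 lower in translation output, 4 and 12 in RNA and 4 and 1 in efficiency. Depth limits *matK*, which could not be tested.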
